A study of Mus musculus with 14 samples.

Results

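The 9 genes described here are expressed in brain mainly by microglia, the resident macrophages, and 3 of them encode the chains of C1q, which starts the classical complement cascade. They were Cx3cr1, P2ry12, Tmem119, Csf1r, C1qa, C1qb, C1qc, Aif1 and Trem2, chosen by name from the 39017 gene IDs of the count table. All 9 passed the filter on low counts, which kept 21298 genes. RNA was measured from the hippocampus of male mice on a C57BL/6 background that carried PV-Cre and a Cre-dependent EGFP-L10a, a ribosomal protein fused to a green fluorescent protein. In translating ribosome affinity purification (TRAP), tagged polysomes were immunoprecipitated, so that RNA of parvalbumin (PV) neurons was enriched. The tag marks every cell in which PV-Cre had acted, and both hippocampi of 1 mouse made one TRAP sample. The mice were young adults.

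The TRAP libraries came from 4 non-defeated, 4 resilient and 3 susceptible mice, and 3 input libraries held total hippocampal RNA of non-defeated mice. Chronic social defeat stress (CSDS) exposes a mouse daily to an aggressor, and defeated mice are called susceptible or resilient by their social interaction afterwards. Non-defeated mice had no contact with aggressors. The comparison of TRAP with input shows how far the RNA of other cells was removed, and the comparisons among TRAP groups show whether what was left of microglial RNA differed with stress.

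Microglia enter the brain early in development and live on signals from neighbouring cells. Csf1r, their growth factor receptor, binds Csf1 and Il34. Cx3cr1 binds fractalkine (Cx3cl1), which neurons make, and P2ry12 senses nucleotides and guides their processes. C1q is made mostly by microglia, binds to synapses and debris and, through C1r and C1s, leads to cleavage of C4 and C3, whose fragments microglia recognise by receptors that include Itgam. Trem2 signals through the adaptor Tyrobp, Aif1 (Iba1) is a calcium-binding protein of the cytoskeleton used as a stain for microglia, and Tmem119 is a membrane protein that sets them apart from other macrophages.

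The C1q genes lie side by side on the minus strand of chromosome 4 in mm10, with C1qb at chr4:136880129-136886187, C1qc at chr4:136889804-136893065 and C1qa at chr4:136895917-136898803. To show the sequence in front of genes that are used together in microglia, the RefSeq promoter windows (GRCm38.p6, 250 bases before to 50 after each start) were searched on both strands for GAGGAA, the core of the box bound by PU.1, the myeloid transcription factor encoded by Spi1. Windows were found for 6 of the 9 genes, and 4 of them held a match. By gene, a match occurred for 31.3% of 27025 genes in the table and for 14 of 21 other microglial genes listed, and by window in 28.3% of 32851. A match describes letters only and is no evidence of binding. Positions are counted from the RefSeq start. For C1qc that start lies within the gene as given above, so its stretch shown runs from position -250 to -152. The stretches before the start are shown for C1qb (chr4:136886201-136886350, minus strand, match 30 bases before the start), C1qc (chr4:136893066-136893164, minus strand, 193 bases before) and Trem2 (chr17:48346251-48346400, plus strand, 40 bases before), each 5′ to 3′ on the gene's strand with the match in capitals. In C1qc and Trem2 the match is on the opposite strand and reads TTCCTC.
C1qb: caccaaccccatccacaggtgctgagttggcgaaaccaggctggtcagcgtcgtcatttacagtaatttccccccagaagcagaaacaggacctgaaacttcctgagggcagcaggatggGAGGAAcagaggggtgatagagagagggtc
C1qc: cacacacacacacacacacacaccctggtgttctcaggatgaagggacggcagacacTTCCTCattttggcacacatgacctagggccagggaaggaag
Trem2: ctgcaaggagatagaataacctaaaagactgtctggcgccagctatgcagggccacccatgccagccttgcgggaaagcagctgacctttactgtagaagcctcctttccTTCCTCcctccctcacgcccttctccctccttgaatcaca
In Aif1 the match lay 7 bases before the RefSeq start and inside an annotated exon, and the windows of Cx3cr1 and P2ry12 held none.

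Library totals ranged from 64110214 to 94726962 counts. Pvalb was 20.02 to 31.9 CPM (counts scaled to a common library size) in input and 1207 to 1600 in TRAP, so the purified libraries carried their defining marker. The summed level of 5 erythrocyte genes differed between stress groups. It was 116 to 243 CPM in non-defeated, 129 to 599 in resilient and 890 to 1239 in susceptible TRAP libraries, against 780 to 987 in input.

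All 9 genes were lower in TRAP than in input. Levels are given as CPM after TMM normalization, which scales libraries to a common composition. The fitted log2 fold change of non-defeated TRAP over input ran from -2.72 for Tmem119 to -0.61 for Csf1r, with a median of -2.47, and all 9 passed an adjusted p of 0.05 in edgeR's quasi-likelihood test. Of all genes tested 27.6% were called lower in TRAP, and the median change over all genes tested was -0.04. In each of the 9 genes every one of the 11 TRAP libraries was below every input library, which held for 25.1% of genes tested. This comparison describes how far microglial RNA was removed by the purification. It does not measure the number of microglia or their RNA per cell. Between the stress groups, such bulk samples cannot tell fewer microglia from less RNA per microglial cell. Input came from non-defeated mice only, so a difference in how much other RNA the purification left cannot be told apart either.

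Among the surface proteins of resting microglia, Tmem119 was 6.98, 8.95 and 9.32 CPM in input and 1.19, 0.94, 1.16 and 1.82 CPM in the non-defeated TRAP libraries numbered 1, 6, 9 and 11. The groups lay far apart, by -2.72 ± 0.22 on the log2 scale (SE; adjusted p = 1.67e-07 by edgeR), and Tmem119 ranked 287 of 21298 genes from the most depleted. P2ry12 was 8.45, 9.26 and 8.94 CPM in input and 0.84, 1.68, 1.56 and 2.17 CPM in non-defeated TRAP, a log2 fold change of -2.51 ± 0.31 (adjusted p = 8.99e-06). P2ry12 shares 9 exon bases with Med12l on the opposite strand, or 0.353% of its exon length.

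The fractalkine receptor Cx3cr1 was 9.53, 11.2 and 11.7 CPM in input and 0.39, 1.86, 2.58 and 2.95 CPM in non-defeated TRAP, which differed by -2.47 ± 0.60 on the log2 scale (adjusted p = 0.00291 by edgeR). Its input libraries lay close together and its TRAP libraries did not. Over the 11 TRAP libraries Cx3cr1 spanned a 10.45-fold range, from 28 counts in non-defeated 1 to 308 in susceptible 10, and its coefficient of variation of 58.8% stood against 8.17% from counting alone.

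Csf1r was the least depleted of the 9. Its level was 31.5, 32.2 and 33.6 CPM in input and 19.8, 19.6, 22.7 and 22.7 CPM in non-defeated TRAP, a log2 fold change of -0.61 ± 0.09 (adjusted p = 8.08e-05 by edgeR). It fell to 65.4% of the input mean, against 15.2% to 29.1% for the other 8 genes. It was also the steadiest over TRAP libraries, with a coefficient of variation of 7.85%. Csf1r shares 873 exon bases, 15.1% of its exon length, with Hmgxb3 on the opposite strand, and the library kit does not mark strand. Hmgxb3 stood at 71.1 to 74.5 CPM in input and 37.9 to 69.2 CPM in TRAP, and its part in the level of Csf1r was not tested.

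The 3 chains of C1q, which assemble into one molecule, were all depleted. C1qb was 11.6, 10.96 and 13.3 CPM in input and 2.66, 1.69, 2.10 and 2.19 CPM in non-defeated TRAP, a log2 difference of -2.47 ± 0.23 (adjusted p = 6.5e-07 by edgeR). C1qc was 8.86, 9.77 and 9.24 CPM in input and 1.62, 1.96, 2.33 and 3.56 CPM in TRAP, a change of -1.97 ± 0.29 (adjusted p = 5.62e-05). C1qa was 4.92, 5.15 and 6.81 CPM in input and 1.255, 1.68, 1.75 and 1.87 CPM in TRAP, a change of -1.78 ± 0.35 (adjusted p = 0.000553). No chain's TRAP values reached its input values, and the 95% intervals of the 3 changes overlapped.

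The genes with the fewest counts gave the same picture. Aif1 was 2.40, 3.67 and 3.16 CPM in input and 0.26, 0.72, 0.44 and 0.63 CPM in non-defeated TRAP, a log2 difference of -2.58 ± 0.37 (adjusted p = 4.03e-05 by edgeR). Trem2 was 1.74, 2.07 and 1.89 CPM in input and 0.18, 0.61, 0.48 and 0.83 CPM in TRAP, a change of -1.85 ± 0.43 (adjusted p = 0.00202). Both groups were separate for both genes, although the lowest TRAP value of Trem2 rested on 13 counts.

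**Figure D1:**
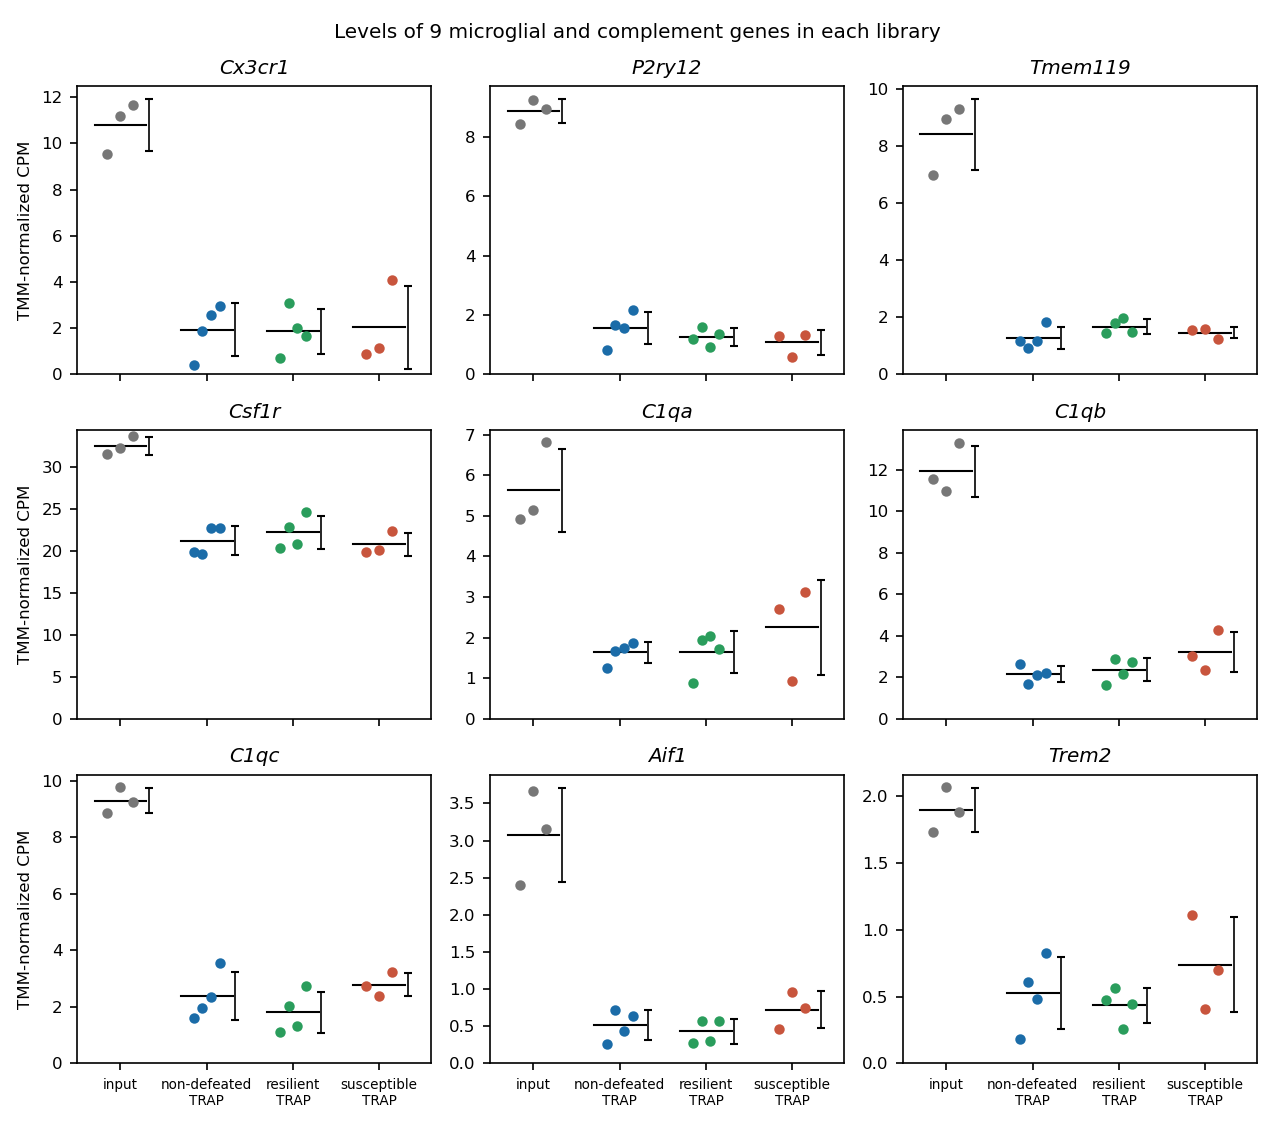
TMM-normalized CPM of each of the 9 genes in every library (points), on linear axes that start at 0, with the group mean as a line and the SD as a bar beside it (n = 3 input, 4 non-defeated, 4 resilient and 3 susceptible). Every TRAP library lies below every input library in each panel, and the 3 TRAP groups overlap.

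Other cell types gave a scale for this depletion. Of 30 further microglial genes, 22 were called lower in TRAP, with a median log2 fold change of -1.68. The deepest falls were those of Tyrobp, the Trem2 adaptor, at -3.60 ± 0.37, and of the receptor Gpr34 at -3.11 ± 0.70. The microglial transcription factors Sall1 and Spi1 changed by -1.61 ± 0.19 and -1.85 ± 0.43. The median of 10 oligodendrocyte genes was -2.51, that of 10 astrocyte genes -1.65, of 10 excitatory neuron genes -1.58 and of 10 endothelial and mural genes -0.07, against 2.77 for 10 PV neuron genes. The median of the 9 genes was thus near that of oligodendrocytes, a comparison given without a test.

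**Figure D2:**
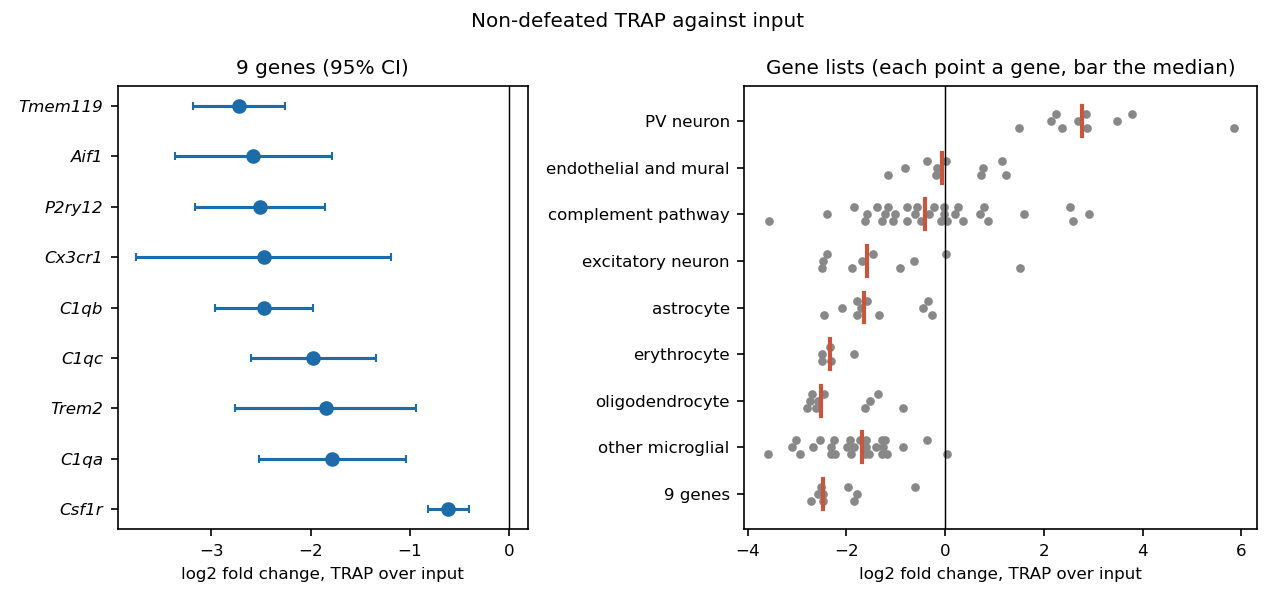
Left, log2 fold change of non-defeated TRAP (n = 4) over input (n = 3) for the 9 genes with its 95% confidence interval from the edgeR fit. Right, the same log2 fold change for each gene of 9 lists (points) with the list's median (bar). The points of 2 other microglial genes are not drawn, and the bar includes them. Csf1r stands apart at -0.61 from the other 8 genes, which lie between -2.72 and -1.78.

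The partners of these receptors did not move together. Of 12 ligand and partner genes tested, 7 were called lower in TRAP and 3 higher. Csf1 fell from 10.3 ± 0.45 to 1.99 ± 0.97 CPM (SD, n = 3 and 4), a log2 fold change of -2.37 ± 0.39. Il34, the other ligand of Csf1r and one made by neurons, rose from 20.9 ± 2.47 to 34.97 ± 9.19 CPM, a change of 0.74 ± 0.22 (adjusted p = 0.0106 by edgeR). Cx3cl1 was high in both, at 279 ± 14.2 CPM in input and 203 ± 22.6 CPM in TRAP, a change of -0.46 ± 0.09. The TGF-beta receptors went opposite ways, with Tgfbr1 lower (-1.53) and Tgfbr2 higher (1.02).

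Beyond C1q, 32 of 40 complement genes listed passed the filter, and 8 were called higher and 8 lower in TRAP, with a median log2 fold change of -0.41. Of all genes tested 27.4% were called higher and 27.6% lower, so these shares were near the background. C3, the central component, was higher in TRAP (0.44 ± 0.14 CPM in input and 1.34 ± 0.46 CPM in non-defeated TRAP), with a change of 1.61 ± 0.32 (adjusted p = 0.000748 by edgeR). The largest rises called were those of Cr2 (2.92 ± 0.64, from 0.11 CPM in input) and Srpx2 (2.58 ± 0.37). Hc, which encodes C5, rose by 2.53 ± 0.28. The deepest falls were those of C7 (-3.58 ± 1.15) and properdin, Cfp (-2.39 ± 0.82). The C1 inhibitor gene Serping1 fell by 1.23 on the log2 scale. C1ra (-0.77), C1s1 (-0.08), C4b (-1.06), C3ar1 (-1.85), Itgam (0.04) and the synaptic complement inhibitor Csmd1 (-0.02) did not pass the test, and C1s1 was at most 0.295 CPM in any TRAP library of non-defeated mice.

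Per kilobase of annotated exon (RPKM), the highest of the 9 in input was C1qb at 10.98 ± 1.13 RPKM (SD, n = 3). Csf1r (5.61 ± 0.19), C1qa (5.41 ± 0.99) and C1qc (4.81 ± 0.24) followed, and neighbours among these did not differ beyond their spread. Tmem119 (3.64 ± 0.54) and P2ry12 (3.49 ± 0.16) came next and did not differ beyond their spread, nor did Cx3cr1 (2.40 ± 0.25) and Aif1 (2.01 ± 0.41), while Trem2 was lowest at 0.38 ± 0.03 RPKM. In non-defeated TRAP the order changed at the top, with Csf1r at 3.67 ± 0.30 RPKM above C1qb at 1.99 ± 0.37, C1qa at 1.57 ± 0.26 and C1qc at 1.23 ± 0.44 RPKM. The other 5 genes had means of at most 0.725 RPKM in all 3 TRAP groups.

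Within C1q, C1qb had the highest RPKM of the chains in 3 of 3 input and 10 of 11 TRAP libraries, and C1qc the lowest in 2 of 3 and 9 of 11. The ratio of C1qb to C1qa was 1.87 to 2.24 in input and 0.96 to 2.42 in TRAP, with a TRAP median of 1.30. The ranges overlapped, and the TRAP ratios rest on 283 to 801 C1q counts per library against 1828 to 2631 in input. The summed CPM of the 3 chains over that of Cx3cr1 was 2.32 to 2.66 in input and 2.23 to 14.2 in TRAP, with the highest ratios in non-defeated 1 and susceptible 2, where Cx3cr1 was low.

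**Figure D3:**
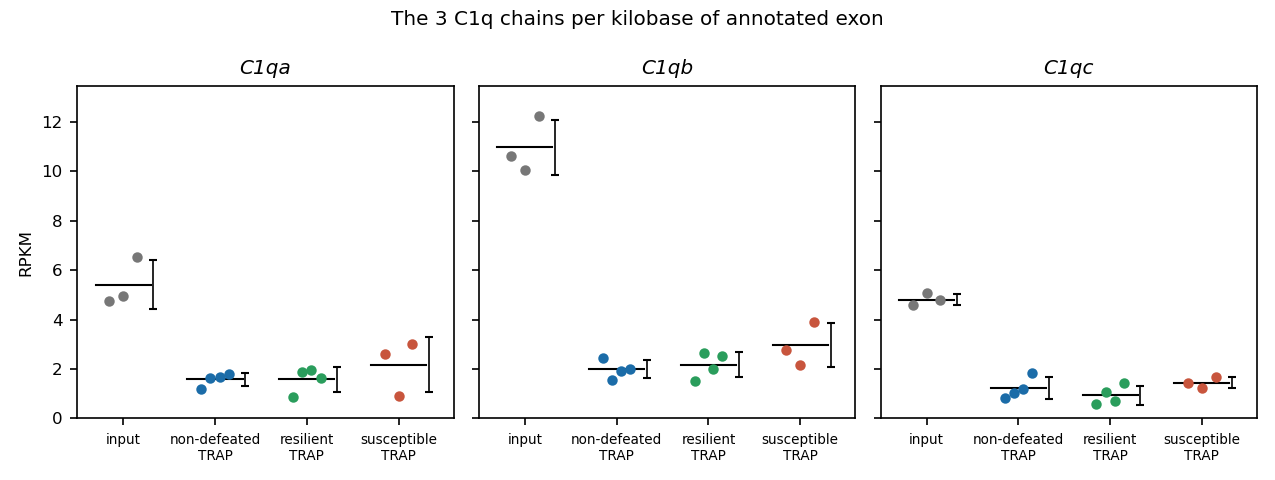
RPKM of the 3 C1q chains in every library (points) on one linear axis from 0, with group means (lines) and SD (bars beside them). C1qb lies between 10.1 and 12.2 RPKM in input and between 1.52 and 3.92 RPKM in TRAP, and C1qc is the lowest chain in 9 of 11 TRAP libraries.

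Among the TRAP groups no difference in the 9 genes passed the adjusted threshold. The 3 comparisons share libraries pairwise, so their values are not independent. None of the 9 genes separated any pair of groups, a separation seen for 2.35% of all genes tested between resilient and non-defeated, for 8.62% between susceptible and non-defeated and for 15.1% between susceptible and resilient libraries.

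Between resilient and non-defeated libraries 0 of the 9 genes were called by edgeR's quasi-likelihood test, by its likelihood ratio test or by DESeq2, and 0 had an unadjusted p under 0.05 in the first. Of all genes tested that test called 0%, with 4.38% at an unadjusted p under 0.05, while the likelihood ratio test called 4 genes and DESeq2 0. The changes ran from -0.40 for C1qc to 0.39 for Tmem119 on the log2 scale, 4 upward and 5 downward, with a median of -0.05 against 0.00 for all genes. Tmem119 was 1.45, 1.79, 1.98 and 1.49 CPM in resilient libraries 3, 5, 7 and 8, against 1.19, 0.94, 1.16 and 1.82 CPM in non-defeated ones. All but resilient 7 were thus below the highest non-defeated value, and the difference had an unadjusted p of 0.0713 (adjusted p = 1 by edgeR) and an exact 2-sided permutation p of 0.114, where the smallest possible is 0.0286.

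Between susceptible and non-defeated libraries 0 of the 9 genes were called by any of these tools. The quasi-likelihood test called 0.0376% of all genes (8 genes), the likelihood ratio test 189 and DESeq2 107. In the first, 1 of the 9 had an unadjusted p under 0.05, against 13.3% of all genes. That gene was C1qb. Its level was 3.02, 2.37 and 4.26 CPM in susceptible libraries 2, 4 and 10 and 2.66, 1.69, 2.10 and 2.19 CPM in non-defeated ones. Susceptible 4 lay below the highest non-defeated library, so the groups overlapped. The log2 fold change was 0.58 ± 0.23 (95% interval 0.09 to 1.07, unadjusted p = 0.0238, adjusted p = 0.318 by edgeR), and the exact 2-sided permutation p was 0.0857. The change was 0.32 (unadjusted p = 0.187) with susceptible 10 left out and 0.48 (unadjusted p = 0.0693) with non-defeated 6 left out. The other chains stood at 0.46 ± 0.35 (C1qa) and 0.23 ± 0.30 (C1qc). P2ry12 had the lowest value, -0.53 ± 0.32 (unadjusted p = 0.114), at 1.31, 0.60 and 1.34 CPM in susceptible libraries. In all, 7 of the 9 changes were positive, with a median of 0.23 against 0.01 for all genes.

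Between susceptible and resilient libraries 0 of the 9 genes were called by the same tools. The quasi-likelihood test called 1.89% of all genes (403 genes), the likelihood ratio test 1099 and DESeq2 1030. In the first, 0 of the 9 had an unadjusted p under 0.05, against 20.9% of all genes. The median change of the 9 was 0.44 against 0.00 for all genes, with 6 positive and 3 negative. The smallest p was that of C1qc, which was 2.73, 2.40 and 3.22 CPM in susceptible and 1.09, 2.04, 1.33 and 2.73 CPM in resilient libraries. Resilient 8 lay within the susceptible range and the other resilient libraries below it. The log2 fold change was 0.63 ± 0.30 (unadjusted p = 0.0515, adjusted p = 0.242 by edgeR, exact 2-sided permutation p = 0.114). The highest changes were those of Trem2, 0.77 ± 0.43, and Aif1, 0.75 ± 0.38, with adjusted p-values of 0.335 and 0.27. Aif1 was 0.47, 0.96 and 0.74 CPM in susceptible and 0.27, 0.57, 0.30 and 0.57 CPM in resilient libraries, so that susceptible 2 fell among the resilient ones.

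These tests leave room for sizeable differences. The half-width of the 95% interval over the 9 genes was 0.19 to 1.29 on the log2 scale in the stress comparisons. It was narrowest for Csf1r, whose change was -0.03 (-0.23 to 0.18) between susceptible and non-defeated and -0.09 (-0.30 to 0.11) between susceptible and resilient libraries. It was widest for Cx3cr1, at 0.07 (-1.23 to 1.36) between susceptible and non-defeated libraries. Cx3cr1 was 0.72, 3.08, 2.02 and 1.67 CPM in resilient libraries and 0.88, 1.14 and 4.08 CPM in susceptible ones, with the highest TRAP value in susceptible 10.

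**Figure D4:**
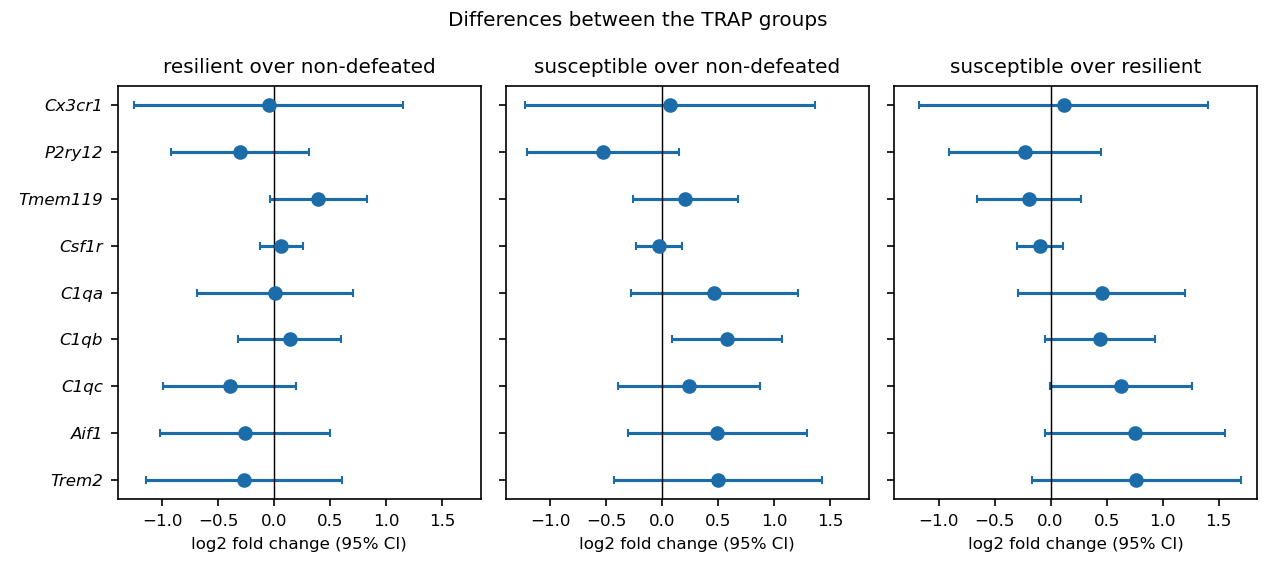
Log2 fold change of the 9 genes between the 3 TRAP groups with its 95% confidence interval from the edgeR fit (n = 4 non-defeated, 4 resilient, 3 susceptible). Every interval includes 0 except that of C1qb between susceptible and non-defeated libraries (0.09 to 1.07), which did not pass after adjustment.

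The wider microglial lists gave few calls. None of 30 other microglial genes was called by edgeR's quasi-likelihood test in any stress comparison. In the order given above, 2, 4 and 7 had an unadjusted p under 0.05, against 4.38%, 13.3% and 20.9% of all genes. The 2 were lower in resilient libraries, and the 4 and the 7 were higher in susceptible ones. DESeq2 also called 0, and the likelihood ratio test 1, between susceptible and resilient libraries. The smallest p was that of Itgam, a subunit of complement receptor 3, between resilient and non-defeated libraries, at 2.05 ± 0.22 and 3.13 ± 0.46 CPM (SD, n = 4 each), a change of -0.61 ± 0.17 (unadjusted p = 0.00275, adjusted p = 1 by edgeR). In both comparisons with susceptible libraries it was that of Tyrobp, at 0.97 ± 0.27 CPM in susceptible (SD, n = 3), 0.44 ± 0.16 in resilient and 0.45 ± 0.20 in non-defeated libraries (n = 4 each). Its change was 1.15 ± 0.36 between susceptible and resilient libraries (adjusted p = 0.0982 by edgeR). Of the ligands, Cx3cl1 was 184 ± 13.1 CPM in susceptible and 227 ± 12.3 CPM in resilient libraries, a change of -0.30 ± 0.09 (adjusted p = 0.0916). Of 18 genes of activated microglia and 15 of inflammation tested, 0 were called in any stress comparison by edgeR's quasi-likelihood test or by DESeq2. Between susceptible and non-defeated libraries 6 and 5 of them had an unadjusted p under 0.05, against 13.3% of all genes. Of these, 6 and 4 were higher in susceptible libraries. Between susceptible and resilient libraries 3 in each list had an unadjusted p under 0.05, against 20.9% of all genes. Of those, 3 and 2 were higher in susceptible libraries. The likelihood ratio test called 1 gene of each list in the former comparison and 2 inflammation genes in the latter.

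In the complement list 2 of 32 genes were called higher in susceptible than in resilient libraries, where 1.89% of all genes were called. Neither of the 2 belonged to C1q. Hc was 2.54 ± 0.73 CPM in susceptible (SD, n = 3) and 1.08 ± 0.22 CPM in resilient libraries (n = 4), a change of 1.24 ± 0.24 (adjusted p = 0.0346 by edgeR). Cd55, which speeds the decay of C3 convertases on host cells, was 3.96 ± 0.39 against 2.09 ± 0.46 CPM, a change of 0.92 ± 0.20 (adjusted p = 0.0411). Stab1, a scavenger receptor of border macrophages, rose by 0.59 ± 0.12 (adjusted p = 0.0378), the only call among 7 genes of those cells. None of the 3 was called when TRAP libraries were fitted alone or when only the 2 groups compared were fitted. The complement list had 0 calls without any 1 of the 4 resilient libraries or susceptible 2, and the border macrophage list had 1 call only without susceptible 10.

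Summed levels of some lists of other cell types also differed between stress groups. Those of astrocyte, oligodendrocyte and excitatory neuron genes overlapped in all 3 TRAP groups. The astrocyte sums, for example, were 1004 to 1506 CPM in non-defeated, 1009 to 1677 in resilient and 1014 to 1787 in susceptible libraries. The summed CPM of 8 border macrophage genes was 5.88 to 7.94 in non-defeated, 5.59 to 7.003 in resilient and 7.60 to 10.99 in susceptible libraries. Stab1 made up most of this sum, with means of 5.23, 4.41 and 6.65 CPM in these groups. Its change in TRAP over input was 0.30, while the other 6 genes tested had negative changes. In the same order of groups, the summed CPM of 11 blood leukocyte genes, of which 2 passed the filter, was 1.58 to 1.77, 2.46 to 4.61 and 3.67 to 7.94. The 2 were Ly6c2 and Pglyrp1, at means of 0.95 and 0.52 CPM in non-defeated and 2.96 and 1.75 CPM in susceptible libraries. Both were higher in TRAP than in input, by 1.21 and 1.66 on the log2 scale. The rest of the leukocyte list had means of at most 0.321 CPM in any TRAP group. Of 10 endothelial and mural genes, 2 were also called higher in TRAP, Cldn5 (1.225) and Ly6c1 (1.16), and 1 lower. Which cells gave the RNA of Ly6c2 and Pglyrp1 was not tested. The summed CPM of 10 endothelial and mural genes was 14.5 to 26.03, 23.04 to 52.4 and 36.1 to 47.2 CPM. Their median log2 fold change between susceptible and non-defeated libraries was 0.85. There, 4 of the 10 had an unadjusted p under 0.05, against 13.3% of all genes. The quasi-likelihood test called 0 of them there, and the likelihood ratio test and DESeq2 called 3 each. Non-defeated and susceptible libraries overlapped in the border macrophage sums and did not in the leukocyte and the endothelial and mural sums. Of 5 erythrocyte genes 4 were called higher in susceptible than in resilient libraries, where 1.89% of all genes were called. Among the 4, Hba-a1 was higher by 1.76 ± 0.38 on the log2 scale (adjusted p = 0.0411 by edgeR). With 1 library left out at a time this list had 0 calls without resilient 3, 7 or 8 or susceptible 2 or 4, 2 without susceptible 10 and 5 without resilient 5. Between susceptible and non-defeated libraries, where 8 of all genes were called, Hba-a1, Hba-a2 and Pglyrp1 were called higher (adjusted p = 0.0475 each by edgeR). Their log2 fold changes were 2.51 ± 0.39, 2.51 ± 0.39 and 1.74 ± 0.27. The erythrocyte and leukocyte lists had 0 calls there with any 1 library left out. The summed level of the 8 genes without Csf1r was 8.39 to 16.02 CPM in non-defeated, 7.73 to 14.5 in resilient and 10.4 to 18.7 in susceptible libraries, so these sums overlapped where the erythrocyte sums of susceptible libraries stood apart. The part of blood, vessel or border cells in the values of the 9 genes was not tested.

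**Figure D5:**
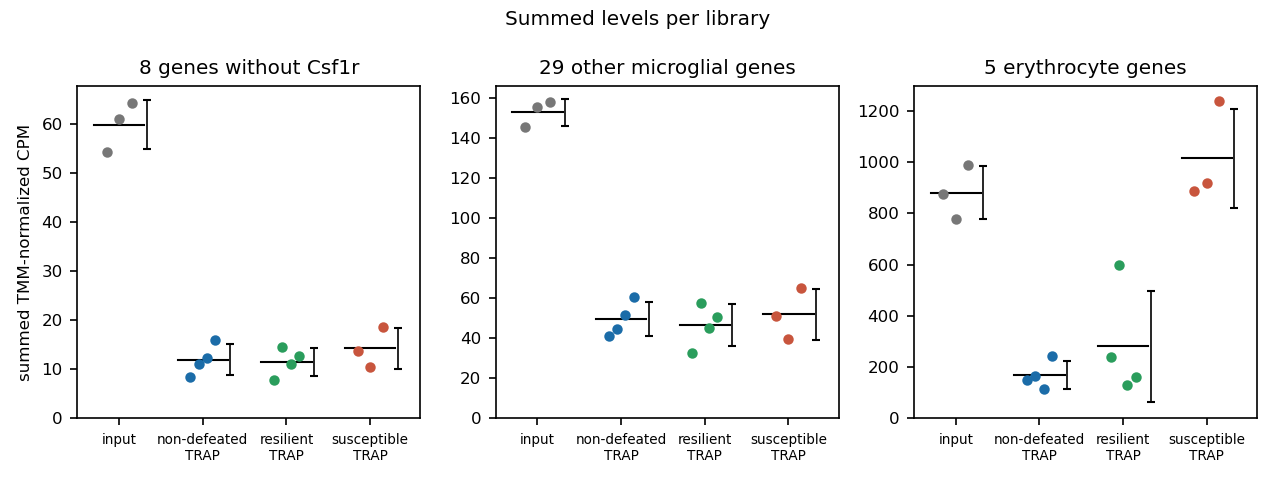
Summed TMM-normalized CPM per library (points) of the 8 genes without Csf1r, of 29 of the 30 other microglial genes and of 5 erythrocyte genes, on linear axes from 0, with group means (lines) and SD (bars beside them). The microglial sums of the 3 TRAP groups overlap, and the erythrocyte sums of susceptible libraries (890 to 1239) lie above all other TRAP libraries.

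Single libraries carried much of the spread. Of the 9 genes, 3 had their highest TRAP value in susceptible 10, and 3 each had their lowest in non-defeated 1 and in resilient 3. The mean of the centred log2 CPM over the 9 genes was -0.65 in non-defeated 1 and -0.51 in resilient 3, and 0.51 in susceptible 10 and 0.42 in non-defeated 11. High and low libraries thus occurred in more than 1 group.

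The genes whose pattern over the 11 TRAP libraries was most like the mean of the 9, by the mean absolute difference of centred log2 CPM, were Grm2 (0.09), Smc5 (0.10), Scn2a (0.11), Gria2 (0.11) and Pds5b (0.12), where the median of 21289 other genes was 0.36. The cathepsin gene Ctss, the closest of the other microglial genes, ranked 12 at 0.13. For the mean of the 3 C1q chains the closest were Scd1 (0.10), Smo (0.11), Sash1 (0.13), Mon2 (0.13) and Pdcd11 (0.13), and Ctss ranked 107.

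Each sample name carries a number from 1 to 14, and its meaning is not given in the sources used here. Numbers 1 to 11 run across the TRAP groups, and 12 to 14 are the input libraries. Any effect of the number thus cannot be told apart from the difference between TRAP and input. With that number as a covariate beside the group, over the 11 TRAP libraries, the log2 level of Cx3cr1 changed by 0.27 ± 0.05 per number (SE, adjusted p = 0.0221 by edgeR), the only call among the 9 genes, while 9.81% of 20762 genes tested were called. Its level was 0.39, 1.86, 2.58 and 2.95 CPM in non-defeated 1, 6, 9 and 11, then 0.72, 3.08, 2.02 and 1.67 CPM in resilient 3, 5, 7 and 8, and 0.88, 1.14 and 4.08 CPM in susceptible 2, 4 and 10. All 9 slopes were positive, from 0.02 for Tmem119 upward, and C1qc came next by p at 0.09 ± 0.03 (adjusted p = 0.0932). Of 30 other microglial genes 3 were called, the transcription factor gene Spi1 at 0.19 ± 0.04 (adjusted p = 0.0215), the immunoglobulin receptor gene Fcgr1 at 0.34 ± 0.08 (adjusted p = 0.0306) and Nckap1l, which encodes a regulator of actin in blood cells, at 0.22 ± 0.04 (adjusted p = 0.0215). What the number stands for was not tested.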

How the data were processed

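The 14 libraries comprised 11 of TRAP RNA (4 non-defeated, 4 resilient, 3 susceptible) and 3 of total hippocampal RNA. The authors deposited raw counts per gene. Reads from SMART-Seq v4 and Nextera XT libraries, which carry no strand mark, were cleaned with fastp, and STAR aligned them to mm10 (2.5.3a in the submitters' processing notes, another version in the methods). The notes also name HTSeq, and its annotation and strand setting are not given in the sources used here.

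Genes were named, and exon lengths and overlaps taken, from release M21 of the GENCODE mouse annotation, which matched 37607 of 39017 IDs. Promoter windows came from RefSeq. Tests were run in edgeR 4.0.16 under R 4.3.3, with all 14 libraries in one model, TMM normalization, the default filter on low counts (21298 genes kept), the quasi-likelihood test, 2-sided, with Benjamini-Hochberg adjustment over all genes tested and a threshold of 0.05. Normalized CPM and RPKM were computed from these counts. Exact permutation tests used log2 CPM with a prior count of 2. A single model was used in place of the 2-group DESeq2 comparison of the study's methods, which was run as an alternative (DESeq2 1.42.0). Further alternatives were the likelihood ratio test, RLE size factors, other filters, fewer libraries in the fit, the number in the sample name as a covariate, and leaving out each library. The scripts were tested on simulated data.

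Totals of 64110214 to 94726962 counts put few reads on these genes in TRAP, as few as 13 for Trem2 in one library. The replicate spread in each test includes this counting error. The groups share no sample numbers, so nothing was paired. The text names the 9 genes, a set of partners, and of other lists some extremes past the threshold or the gene with the smallest p. Not every gene of those lists that passed the threshold is named. The 9 genes and all lists were chosen with earlier results of these data known, and support nothing beyond description. Values of 2 genes of the microglial lists are not reported here.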

Additional observations from a re-analysis of the deposited data

How the results depend on the processing

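All 9 genes stayed called lower in TRAP than in input under the 6 other settings and the 7 fits that each left out 1 library, and none was called in a stress comparison under any setting run. In the stress comparisons, 7 log2 fold changes turned sign in 21 settings, with no adjusted p under 0.05 among them. In the main test these 7 ran from -0.27 (Trem2, resilient against non-defeated) to 0.12 (Cx3cr1, susceptible against resilient). With the number in the sample name as a covariate, Cx3cr1 was 0.49 between resilient and non-defeated and -0.10 between susceptible and resilient libraries, and Csf1r was 0.0035 between susceptible and non-defeated libraries. With RLE size factors C1qa was -0.00041 between resilient and non-defeated libraries. Leaving out 1 library at a time gave, between resilient and non-defeated libraries, -0.40 to 0.22 for Cx3cr1, -0.12 to 0.21 for C1qa and -0.55 to 0.0265 for Trem2. Between susceptible and non-defeated libraries it gave -0.95 to 0.42 for Cx3cr1, the lowest without susceptible 10, and -0.0849 to 0.00668 for Csf1r. Between susceptible and resilient libraries it gave -0.90 to 0.48 for Cx3cr1, again lowest without susceptible 10, and -0.41 to 0.0617 for P2ry12. The cause was not tested.

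The counts over all genes that serve as background moved more. Between susceptible and resilient libraries 403 genes were called, against 1099 by the likelihood ratio test, 1030 by DESeq2, 1109 with the number covariate, 308 with RLE size factors, 542 with at least 10 counts in every library, 126 without a filter, 1 with TRAP libraries alone, 0 with the 2 groups alone and 6 to 1058 with 1 library left out. Between susceptible and non-defeated libraries 8 were called, against 189 by the likelihood ratio test, 107 by DESeq2, 16 with at least 10 counts in every library, 13 with RLE size factors, 10 without a filter, 5 with the 2 groups alone, 0 in both fits of TRAP libraries and 0 to 6 with 1 library left out. Between resilient and non-defeated libraries 0 were called by edgeR's quasi-likelihood test, with 933 at an unadjusted p under 0.05, and 4 by the likelihood ratio test and 0 by DESeq2. No paired analysis was possible because the groups share no sample numbers.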
